A study of Mus musculus with 15 samples.

Results

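Goblet cell genes and genes of mucin glycosylation were followed in epithelial cells isolated from the adult mouse small intestine. The set is a list of 37 named genes, chosen by function: secreted mucus proteins, transcription factors of the goblet lineage, proteins of the endoplasmic reticulum and of secretion, enzymes that build the sugar chains of mucins, and membrane-bound mucins. Of the 37 genes, 36 had a row of the array table that carries their symbol alone, out of 19938 genes with such a row. The rows for Fcgbp, which encodes a mucus protein that binds the Fc part of IgG, each carry several symbols, so it has no value here. Muc1, a membrane mucin, did not exceed the level filter in any group. The other 35 were tested among 11784 genes, and B3gnt6, Gcnt1 and St6galnac1 passed that filter through some groups alone.

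RNA was hybridised to 15 Affymetrix Mouse Gene 1.0 arrays, with n = 3 in each of 5 groups. Adult wild-type CD1 mice gave 1 group of jejunum and 1 of ileum. Ileum also came from adult mice carrying a Gata4 conditional knockin (cKI) and from adult controls, and jejunum from adult mice carrying a Gata4 conditional knockout (cKO). GATA4 is a zinc finger transcription factor of the duodenum and jejunum that is low in the ileum, and the design asks whether it separates jejunal from ileal expression. The labels give no promoter or Cre line for either allele, no strain or genotype for the controls, no sex, and no jejunal control for the knockout mice. Nothing in the labels states that the arrays of a group are from different animals, and the p-values therefore measure the spread between these samples alone. The deposited values are log2 signals and are given for replicates 1, 2 and 3 in that order.

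Goblet cells are secretory cells of the epithelium that fill their upper part with granules of mucin and release them to form the mucus layer. ATOH1 commits a cell to the secretory lineages, and GFI1 and SPDEF act below it toward goblet cells. The MUC2 polypeptide is folded and joined into polymers in the endoplasmic reticulum with the help of AGR2. In the Golgi, GALNT enzymes attach the first sugar to serine and threonine, and further enzymes extend, branch and cap the chains. Goblet cells are known to become more frequent from the duodenum toward the colon.

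Gata4 was the check of the labels. It read 9.68, 9.45 and 9.47 in the wild-type jejunum and 5.99, 5.43 and 5.39 in the wild-type ileum, and was higher in the cKI than in the control ileum by 1.38 ± 0.185 (adjusted p = 0.00453). That rise minus the regional difference was -2.55 ± 0.261 (adjusted p = 3.23e-05), and the control ileum already exceeded the wild-type ileum by 1.22 ± 0.185 (adjusted p = 0.000284). In the arrays labelled cKO it read 9.72, 9.88 and 9.93, which differed from the wild-type jejunum by 0.31 ± 0.185 (adjusted p = 0.322), so the row did not show a loss. The labels do not say which exons the knockout removes or where the probes lie, and the row therefore checks nothing about the deletion. Every direction drawn from these arrays below rests on their label. Array medians lay between 4.82 and 5.0, and precision is limited by having 3 arrays a group.

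Of the 35 tested genes, 26 were lower in the wild-type jejunum than in the wild-type ileum and 0 were higher. A gene is called higher or lower when its p in limma, adjusted by Benjamini-Hochberg over the 11784 genes, is under 0.05, and log2 differences carry the standard error of that fit. Over all genes tested, 7.91% were called lower and 13.4% higher in this comparison. Genes called higher made up 62.8% of all calls, and 50.5% once every array was set to a median of 0, a centring that left the count at 26. At an unadjusted p under 0.05 in limma, 26 were lower and 0 higher. The share of all genes at that unadjusted threshold was not computed, here or below, so such counts are a description alone. The median difference was -0.7, against 0 over all genes tested. Among the 32 genes whose mean exceeded the filter in every group, 25 were lower. With 1 array left out the count ran from 21 to 24. The arrays of the regions did not overlap for 28 of 35 genes, all lower in the jejunum, against 18% of all genes that were lower without overlap and 22.2% higher.

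Against the wild-type jejunum, 14 of 35 genes were higher in the arrays labelled cKO, where 5.17% of all genes tested were, and 0 were lower, where 7.65% were. The median difference was 0.35, against -0.03 over all genes tested. At an unadjusted p under 0.05 in limma, 19 were higher and 0 lower. Among the 32 genes above the filter in every group, 13 were higher. The count was 9 without wild-type jejunum replicate 3, 8 when the 2 groups were fitted alone, and 17 after centring, where the share of higher genes among all calls rose from 40.3% to 48.8%. All 14 were among those lower in the jejunum than in the ileum, a comparison that shares the wild-type jejunal arrays. Of all genes tested, 3.73% had that pair of calls. These 14 were 53.8% of the 26 genes lower in the jejunum. Of the 932 such genes in the whole table, 47.2% were also called higher in the arrays labelled cKO. Of the 14, only Clca1 was also lower in the cKI ileum, and 0.272% of all genes had these 3 calls. The labels give no jejunal control for the knockout mice. The knockout therefore cannot be told apart from other differences between these mice and the CD1 mice. Calls in either direction made up 12.8% of all genes tested in this comparison. They made up 27.9% between control and wild-type ileum, where neither group is labelled cKI.

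Between cKI and control ileum, 1 of 35 was lower, where 0.424% of all genes tested were, and 0 were higher, where 0.339% were. At an unadjusted p under 0.05 in limma, 10 were lower and 2 higher, counts with no share over all genes beside them. The called gene was Clca1, and its call was lost when these 2 groups were fitted alone (adjusted p = 0.0557). The count was 2 without control replicate 2, where the added gene was Gcnt1, which passed the level filter through the control ileum alone. The median difference was -0.13, against 0.03 over all genes tested, and 25 of 35 differences were below 0, against 43.3% of all genes tested. After centring each array, 28 of 35 were below 0, against 55.5% of all genes, and higher genes made up 26.4% of all calls in place of 44.4%.

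The control ileum differed from the wild-type ileum in 4 genes called higher (19.3% of all genes tested) and 7 called lower (8.61%). Neither group is labelled cKI, and the labels give no genotype for the controls. At an unadjusted p under 0.05 in limma, 4 were higher and 10 lower. The higher genes were Zg16, Tff3, Atoh1 and Agr2, and the lower were Spink4, Spdef, Foxa1, C1galt1c1, Gcnt3, Gmds and Muc13. Without wild-type ileum replicates 1 or 2, or control replicate 1, 2 were higher. After quantile normalization 2 were higher and 11 lower, and after centring 2 and 10, and the median difference of all genes moved from 0.08 to -0.02 and -0.04. The share of higher genes among all calls went from 69.1% to 47.9% and 46.5%, and Atoh1 (0.22 in both scalings, adjusted p = 0.118 and 0.183) and Agr2 (0.26 and 0.19, adjusted p = 0.0829 and 0.156) were no longer called. These 2 calls were also lost without wild-type ileum replicates 1 or 2 or control replicates 1 or 3, and that of Agr2 without wild-type ileum replicate 3 (0.0504 to 0.0775 and 0.0563 to 0.068).

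**Figure D1:**
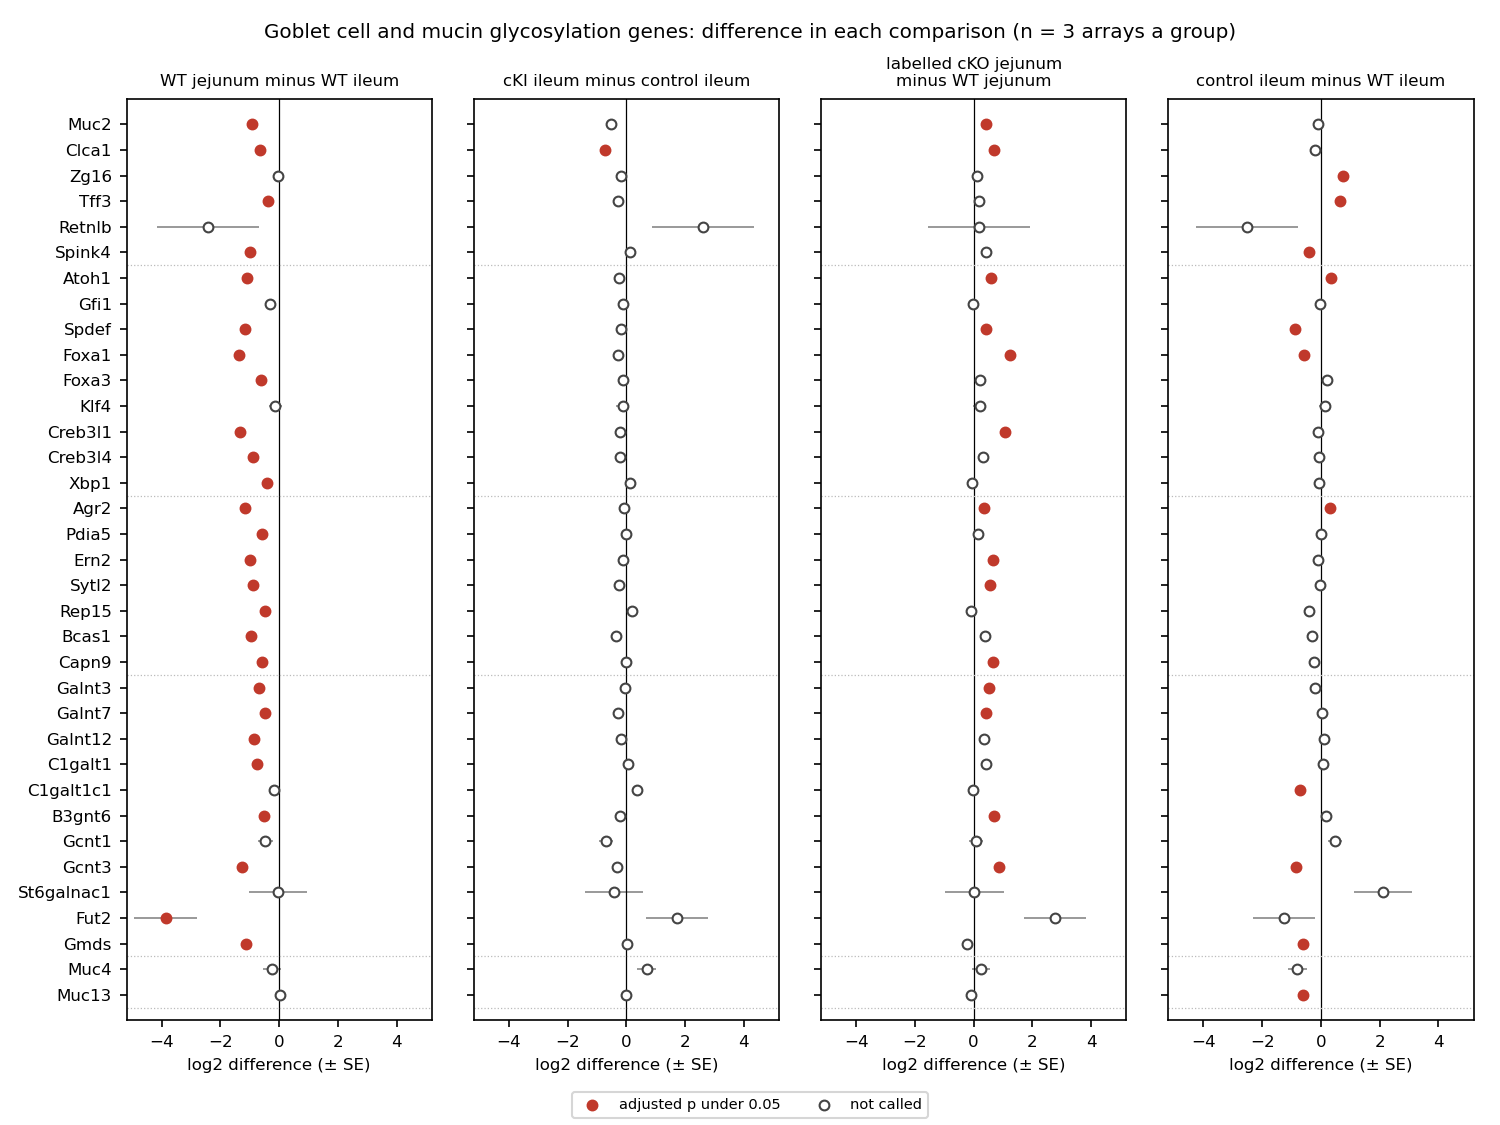
Log2 difference with its standard error (x axis) of each of the 35 tested genes (y axis, grouped by role with dotted lines) in 4 comparisons of n = 3 against 3 arrays; filled points have an adjusted p under 0.05. In the first panel 26 points are filled and all 26 lie left of 0, in the second 1 is filled, in the third 14 are filled and lie right of 0, and in the last 11 are filled on both sides.

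Markers of some other epithelial and non-epithelial cells differed between the regions as well. Of all genes tested, 13.4% were called higher and 7.91% lower in the wild-type jejunum than in the wild-type ileum. Of 12 absorptive enterocyte markers tested, 6 were higher in the wild-type jejunum than in the ileum, and their mean log2 level per array was 11.98 to 12.22 against 10.56 to 11.33. Of 10 stromal and smooth muscle markers 8 were lower in the jejunum, with list means of 4.47 to 4.71 against 5.24 to 5.61. The stromal means were 4.82 to 5.05 in the arrays labelled cKO, 5.47 to 6.51 in the control ileum and 5.13 to 5.43 in the cKI ileum. B and plasma cell markers had 3 of 8 lower in the jejunum, with means of 4.9 to 5.1 against 5.64 to 6.04, and of 5.01 to 5.14 in the arrays labelled cKO. In the wild-type jejunum 6 of the 12 stromal and 7 of the 9 B and plasma cell genes had a mean at or below the level filter. Between cKI and control ileum 2 stromal markers and 1 B and plasma cell marker, Jchain, were lower, where 0.424% of all genes tested were. Of 8 T and NK cell markers limma called 0 there, while all 8 were lower at an unadjusted p under 0.05, with a median of -1.18. Between control and wild-type ileum, 7 of 12 enteroendocrine, 5 of 9 crypt and proliferation, 3 of 8 T and NK, 3 of 10 stromal and 2 of 8 B and plasma cell markers were higher, 1 stromal marker was lower, and 0 of 12 enterocyte markers were called, also at an unadjusted p under 0.05 in limma. All genes tested had 19.3% higher in that comparison. The part of these cells in the results was not tested. In RNA of bulk epithelial cells, fewer goblet cells and less RNA per goblet cell cannot be told apart.

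**Figure D2:**
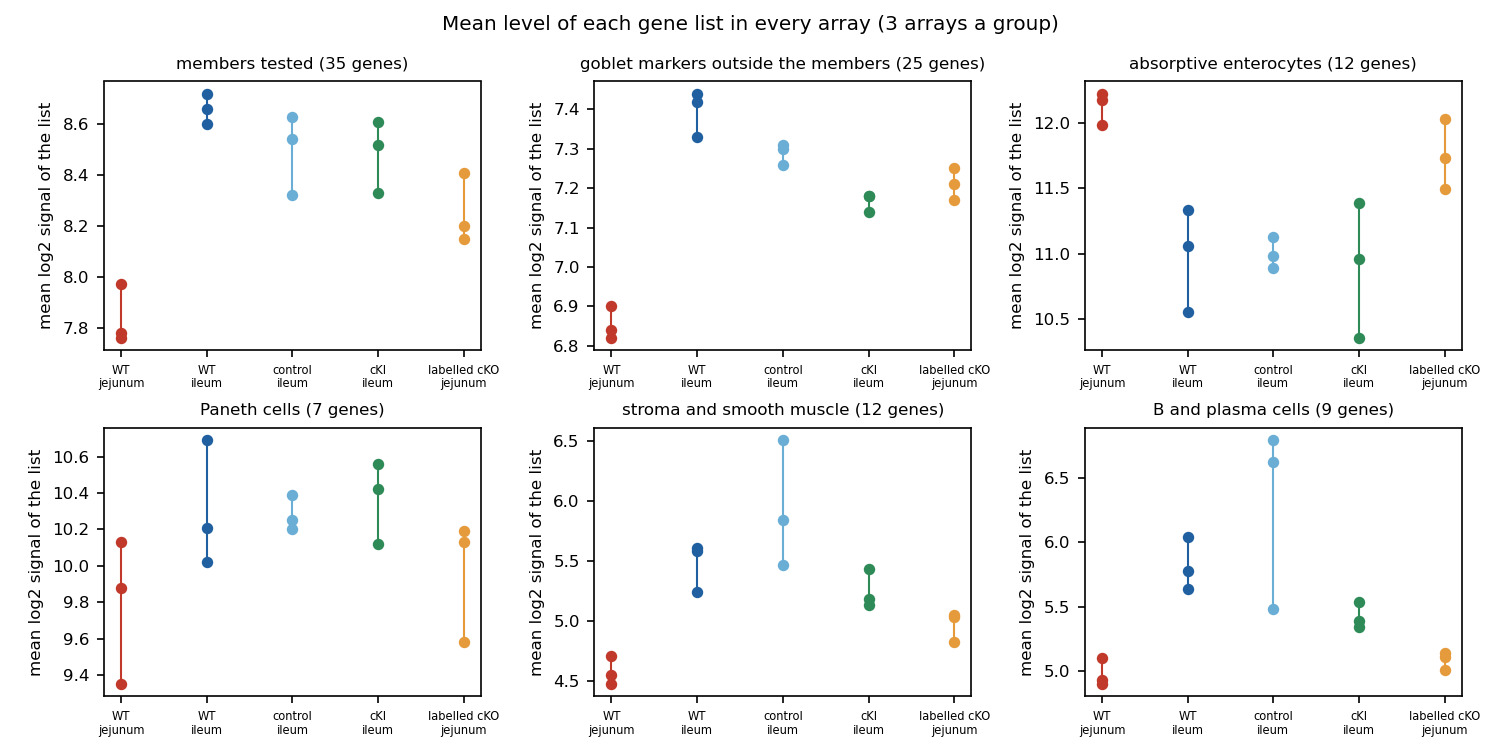
Mean log2 signal of each gene list (y axis) in every array (points, 3 for each of the 5 groups on the x axis; a line joins the lowest and the highest). The tested goblet and glycosylation genes lie at 7.76 to 7.97 in the wild-type jejunum, 8.15 to 8.41 in the arrays labelled cKO and 8.6 to 8.72 in the wild-type ileum, and the stromal list is also lowest in the wild-type jejunum.

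Promoter windows of the reference tables (RefSeq, mouse build GRCm38.p6, 300 bases that run from upstream of a transcript start to just past it) were found for 21 of the 37 genes, in 27 windows. They were searched on both strands for AGATAA and TGATAA, bound by GATA factors, and for CAGCTG, an E-box read by factors such as ATOH1. ACGTGG, an element of XBP1- and CREB3-type factors, and CCGGAA, a core of many ETS factors, were searched as well. The windows of Muc2, Agr2 and Muc13 are shown, with matches in capitals, because Muc2 and Agr2 were called in several comparisons below and Muc13 had the smallest regional difference. They lie at chr7:141690090-141690389, chr12:35992675-35992974 and chr16:33794239-33794538, all on the plus strand.
Muc2: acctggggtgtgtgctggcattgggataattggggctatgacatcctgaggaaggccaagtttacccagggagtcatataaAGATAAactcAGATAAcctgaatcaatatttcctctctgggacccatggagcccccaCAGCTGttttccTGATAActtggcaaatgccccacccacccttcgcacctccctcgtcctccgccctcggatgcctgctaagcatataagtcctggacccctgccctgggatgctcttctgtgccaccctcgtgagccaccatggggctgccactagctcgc
Agr2: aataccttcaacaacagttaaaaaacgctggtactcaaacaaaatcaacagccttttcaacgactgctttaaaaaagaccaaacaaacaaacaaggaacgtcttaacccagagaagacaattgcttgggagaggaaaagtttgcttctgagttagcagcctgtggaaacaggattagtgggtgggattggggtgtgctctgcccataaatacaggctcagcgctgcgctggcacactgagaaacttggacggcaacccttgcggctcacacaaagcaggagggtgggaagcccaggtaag
Muc13: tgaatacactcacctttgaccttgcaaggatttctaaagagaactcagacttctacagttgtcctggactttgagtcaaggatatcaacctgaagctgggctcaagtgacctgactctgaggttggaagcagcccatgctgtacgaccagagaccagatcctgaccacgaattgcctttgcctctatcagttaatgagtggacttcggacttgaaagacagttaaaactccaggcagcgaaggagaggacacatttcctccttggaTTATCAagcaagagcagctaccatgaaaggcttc
The Muc2 window held AGATAA at -169 and -159, TGATAA at -100 and CAGCTG at -112, counted from the transcript start as 0. The Agr2 window held none of the 5 motifs, and this Muc13 window, the second of 2, held TGATAA on the reverse strand at 16. AGATAA or TGATAA was present in 3 of the 27 windows (of Muc2, Muc4 and Muc13) and in 18.6% of all 32851 windows. CAGCTG was in 5 of the 27 (of Muc2, Fcgbp, Klf4, C1galt1 and Pdia5), against 16.3% of all windows. ACGTGG was in 2 of the 27 (of Klf4 and Pdia5), against 8.31%, and CCGGAA in 2 (of Galnt7 and Gfi1), against 14.9%. A match is a description of these letters and not a binding site.

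Among secreted mucus proteins, Muc2, the gel-forming mucin, was lower in the jejunum, and the arrays labelled cKO lay between the regions. Muc2 read 11.62, 11.78 and 11.5 in the wild-type jejunum and 12.64, 12.58 and 12.49 in the wild-type ileum. It read 12.44, 12.57 and 12.37 in the control ileum, 11.95, 12.06 and 11.8 in the cKI ileum and 12.2, 12.11 and 11.82 in the arrays labelled cKO. No wild-type jejunal array reached the lowest ileal one, and no array labelled cKO overlapped either region. The regional difference was -0.94 ± 0.119 (adjusted p = 4.09e-05), 1.92-fold, and the arrays labelled cKO were higher than the jejunum by 0.41 ± 0.119 (adjusted p = 0.0327). That second call was lost without wild-type jejunum replicates 1 or 3 or without arrays labelled cKO 1 or 2 (adjusted p from 0.0935 to 0.114). Each cKI array was below each control array, with a difference of -0.53 ± 0.119 (adjusted p = 0.0589), and adjusted p = 0.031 with the replicate number as a block over all arrays, or 0.0713 with a block within sets of mice.

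Clca1, a metalloprotease stored in goblet cell granules, followed Muc2 between regions and was lowest in the cKI ileum. Clca1 read 11.92, 11.89 and 11.73 in the wild-type jejunum and 12.59, 12.39 and 12.48 in the wild-type ileum. It read 12.41, 12.3 and 12.13 in the control ileum, 11.62, 11.53 and 11.49 in the cKI ileum and 12.79, 12.46 and 12.39 in the arrays labelled cKO. The cKI arrays were all below the control arrays and also below each wild-type jejunal array. The differences were -0.64 ± 0.118 (adjusted p = 0.00103) between jejunum and ileum, -0.74 ± 0.118 (adjusted p = 0.0141) between cKI and control, and 0.7 ± 0.118 (adjusted p = 0.00103) between the arrays labelled cKO and the jejunum. The knockin difference was 1.67-fold and its adjusted p ran from 0.00225 to 0.0557 over the alternatives. The arrays labelled cKO differed from the wild-type ileum by 0.06 ± 0.118 (adjusted p = 0.829).

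Tff3, a trefoil peptide of mucus, and Zg16, a lectin of the mucus layer, differed less between regions. Tff3 read 12.05, 12.09 and 11.87 in the wild-type jejunum and 12.49, 12.12 and 12.51 in the wild-type ileum. It read 12.94, 13.12 and 12.99 in the control ileum, 12.76, 12.75 and 12.71 in the cKI ileum and 12.24, 12.08 and 12.24 in the arrays labelled cKO. All jejunal arrays lay below the ileal ones, though the highest jejunal and the lowest ileal value nearly met. The regional difference was -0.37 ± 0.114 (adjusted p = 0.0307), and the call was lost with a block within sets (adjusted p = 0.0648) and without replicates 1 or 3 of either region (0.058 to 0.132). Zg16 read 12.13, 12.04 and 11.78 in the wild-type jejunum and 12.21, 11.83 and 12.06 in the wild-type ileum. It read 12.74, 12.88 and 12.74 in the control ileum, 12.64, 12.58 and 12.58 in the cKI ileum and 12.25, 11.88 and 12.16 in the arrays labelled cKO. The wild-type groups and the arrays labelled cKO overlapped for Zg16, with a regional difference of -0.05 ± 0.128 (adjusted p = 0.843). Both genes were higher in the control than in the wild-type ileum, Tff3 by 0.64 ± 0.114 (adjusted p = 0.000938) and Zg16 by 0.76 ± 0.128 (adjusted p = 0.000619).

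Spink4, a Kazal-type protease inhibitor of goblet cells, was lower in the jejunum by 2.02-fold. Spink4 read 10.99, 10.93 and 10.48 in the wild-type jejunum and 11.87, 11.81 and 11.76 in the wild-type ileum. It read 11.59, 11.17 and 11.41 in the control ileum, 11.54, 11.5 and 11.45 in the cKI ileum and 11.19, 11.26 and 11.21 in the arrays labelled cKO. The jejunal arrays were the lowest of the 15 arrays and the wild-type ileal arrays the highest. The regional difference was -1.01 ± 0.132 (adjusted p = 5.52e-05). Against the jejunum the arrays labelled cKO differed by 0.42 ± 0.132 (adjusted p = 0.0505), and by 0.42 with adjusted p = 0.0466 with a block within sets. The control ileum was lower than the wild-type ileum (-0.42 ± 0.132, adjusted p = 0.0273), a call lost without any 1 of the wild-type ileal arrays or without control replicates 2 or 3 (0.0521 to 0.123).

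**Figure D3:**
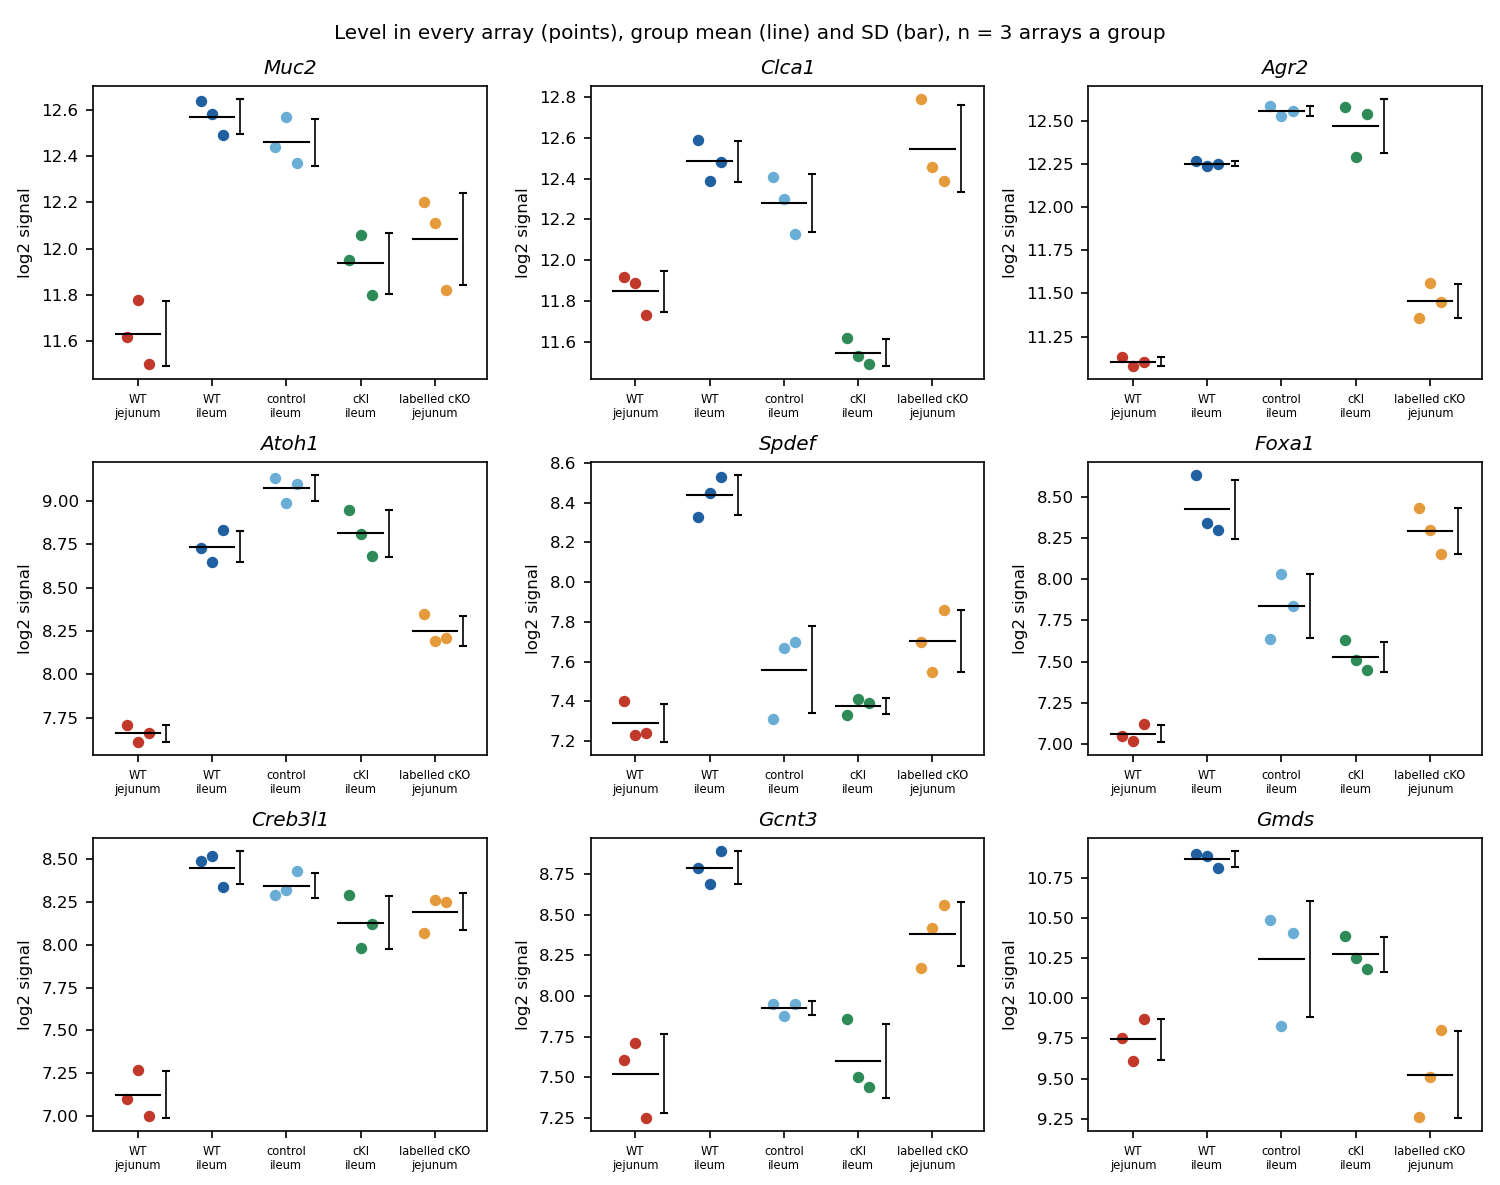
Log2 signal (y axis) of 9 genes in every array (points), with the group mean (line) and SD (bar, n = 3) in the 5 groups on the x axis; each panel has its own axis, which does not start at 0. The wild-type jejunum is lowest in the panels of Muc2, Agr2, Atoh1, Spdef, Foxa1, Creb3l1 and Gcnt3, the cKI ileum is lowest for Clca1, and the arrays labelled cKO are lowest for Gmds.

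Most of the goblet lineage factors were lower in the jejunum: 7 of 9 were called, against 7.91% of all genes tested. Atoh1 read 7.71, 7.61 and 7.66 in the wild-type jejunum and 8.73, 8.65 and 8.83 in the wild-type ileum. It read 9.13, 8.99 and 9.1 in the control ileum, 8.95, 8.81 and 8.68 in the cKI ileum and 8.35, 8.19 and 8.21 in the arrays labelled cKO. Atoh1, which commits cells to the secretory lineages, was thus lowest in the wild-type jejunum and intermediate in the arrays labelled cKO, with no overlap. Its differences were -1.08 ± 0.0981 (adjusted p = 1.74e-06) between regions and 0.59 ± 0.0981 (adjusted p = 0.000954) for the arrays labelled cKO against the jejunum. The latter arrays also stayed below the wild-type ileum, with a difference of -0.49 ± 0.0981 (adjusted p = 0.00959), lost when these 2 groups were fitted alone (0.076).

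Spdef, an ETS factor needed for goblet cell maturation, was high in the wild-type ileum alone. Spdef read 7.4, 7.23 and 7.24 in the wild-type jejunum and 8.33, 8.45 and 8.53 in the wild-type ileum. It read 7.31, 7.67 and 7.7 in the control ileum, 7.33, 7.41 and 7.39 in the cKI ileum and 7.7, 7.55 and 7.86 in the arrays labelled cKO. Control and cKI ileal arrays overlapped the jejunal ones, and every wild-type ileal array was above all others. The differences were -1.15 ± 0.119 (adjusted p = 6.44e-06) between regions, -0.88 ± 0.119 (adjusted p = 0.000123) between control and wild-type ileum, and 0.42 ± 0.119 (adjusted p = 0.0322) for the arrays labelled cKO against the jejunum. The last call was lost without wild-type jejunum replicates 2 or 3 or arrays labelled cKO 1 or 3 (0.0611 to 0.113), and with a block within sets (0.0556).

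Foxa1 and Creb3l1 showed the largest called rises in the arrays labelled cKO among these 35 genes. Foxa1 read 7.05, 7.02 and 7.12 in the wild-type jejunum and 8.63, 8.34 and 8.3 in the wild-type ileum. It read 7.64, 8.03 and 7.84 in the control ileum, 7.63, 7.51 and 7.45 in the cKI ileum and 8.43, 8.3 and 8.15 in the arrays labelled cKO. The arrays labelled cKO overlapped the wild-type ileum and no jejunal array came near them. Foxa1, a forkhead factor that opens chromatin, differed by -1.36 ± 0.122 (adjusted p = 1.49e-06) between regions and by 1.23 ± 0.122 (adjusted p = 1.04e-05), 2.35-fold, between the arrays labelled cKO and the jejunum. Creb3l1 read 7.1, 7.27 and 7 in the wild-type jejunum and 8.49, 8.52 and 8.34 in the wild-type ileum. It read 8.29, 8.32 and 8.43 in the control ileum, 8.29, 7.98 and 8.12 in the cKI ileum and 8.07, 8.26 and 8.25 in the arrays labelled cKO. Creb3l1, a membrane-tethered factor of secretory cells, had jejunal arrays far below all others and arrays labelled cKO below the lowest wild-type ileal array. Its differences were -1.33 ± 0.11 (adjusted p = 7.19e-07) and 1.07 ± 0.11 (adjusted p = 1.46e-05). The arrays labelled cKO differed from the wild-type ileum by -0.13 ± 0.122 (adjusted p = 0.61) for Foxa1 and -0.26 ± 0.11 (adjusted p = 0.2) for Creb3l1.

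Creb3l4, a relative of Creb3l1, Foxa3, another forkhead factor, and Xbp1, a main factor of the unfolded protein response, were also lower in the jejunum. Their differences were -0.9 ± 0.16, -0.62 ± 0.139 and -0.41 ± 0.108 in that order (adjusted p from 0.000751 to 0.0127). The Xbp1 call was lost if wild-type jejunum replicate 3 (0.0598) or ileum replicate 2 (0.0605) was left out. Gfi1, which represses the enteroendocrine program, differed by -0.3 ± 0.149 (adjusted p = 0.191), and Klf4, a zinc finger factor of goblet cell differentiation, by -0.13 ± 0.216 (adjusted p = 0.734). None of these 5 was called between the arrays labelled cKO and the jejunum, where their differences ran from -0.06 to 0.31. For Xbp1 and Creb3l4 the arrays labelled cKO were lower than the wild-type ileum, with a difference of -0.47 ± 0.108 (adjusted p = 0.021) and -0.6 ± 0.16 (adjusted p = 0.0442). These 2 calls were lost without wild-type ileum replicate 2 or arrays labelled cKO 1 or 2, the first also without wild-type ileum replicate 1 and the second without replicate 3 (0.0549 to 0.106 and 0.0625 to 0.155).

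All 7 genes of the endoplasmic reticulum and of secretion were lower in the jejunum, against 7.91% of all genes tested. Agr2 read 11.13, 11.08 and 11.1 in the wild-type jejunum and 12.27, 12.24 and 12.25 in the wild-type ileum. It read 12.59, 12.53 and 12.56 in the control ileum, 12.58, 12.29 and 12.54 in the cKI ileum and 11.36, 11.56 and 11.45 in the arrays labelled cKO. The 3 arrays of each wild-type region lay within 0.1 of each other, and the arrays labelled cKO were all nearer to the jejunum than to the ileum. Agr2, the disulfide isomerase that MUC2 needs, differed by -1.15 ± 0.0958 (adjusted p = 7.73e-07), 2.22-fold, between regions and by 0.35 ± 0.0958 (adjusted p = 0.0254) between the arrays labelled cKO and the jejunum. That rise was not called without any 1 of the wild-type jejunal arrays or without array labelled cKO 2 (0.06 to 0.102), nor with a block within sets (0.0545). The arrays labelled cKO were lower than the wild-type ileum, with a difference of -0.8 ± 0.0958 (adjusted p = 0.000271).

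Ern2, the stress sensor IRE1-beta of mucous epithelium, was higher in the arrays labelled cKO than in the jejunum. Ern2 read 7.11, 7.32 and 6.95 in the wild-type jejunum and 8.11, 8.09 and 8.16 in the wild-type ileum. It read 7.97, 7.98 and 8.14 in the control ileum, 7.86, 7.92 and 7.99 in the cKI ileum and 7.73, 7.89 and 7.71 in the arrays labelled cKO. The control arrays overlapped the wild-type ileum, the cKI arrays and then the arrays labelled cKO lay below it, and the jejunal arrays stood below all others. Its differences were -0.99 ± 0.106 (adjusted p = 7.75e-06) between regions and 0.65 ± 0.106 (adjusted p = 0.000755) for the arrays labelled cKO against the jejunum. Sytl2 read 6.63, 6.65 and 6.41 in the wild-type jejunum and 7.43, 7.38 and 7.53 in the wild-type ileum. It read 7.34, 7.5 and 7.44 in the control ileum, 7.24, 7.18 and 7.09 in the cKI ileum and 7.16, 7.19 and 7.08 in the arrays labelled cKO. Sytl2, a granule-docking protein, had the same order of group means, with differences of -0.88 ± 0.0968 (adjusted p = 1.06e-05) and 0.57 ± 0.0968 (adjusted p = 0.00104). Capn9 read 6.45, 6.47 and 5.98 in the wild-type jejunum and 6.97, 6.7 and 6.98 in the wild-type ileum. It read 6.64, 6.67 and 6.58 in the control ileum, 6.64, 6.64 and 6.56 in the cKI ileum and 7.01, 7.01 and 6.89 in the arrays labelled cKO. Capn9, a calpain of the digestive tract, overlapped between the wild-type ileum and the arrays labelled cKO, and all jejunal arrays were below these, with differences of -0.58 ± 0.126 (adjusted p = 0.00342) and 0.67 ± 0.126 (adjusted p = 0.00233).

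Bcas1, Pdia5 and Rep15 were lower in the jejunum without a call in the arrays labelled cKO. Pdia5, a protein disulfide isomerase, differed between regions by -0.6 ± 0.0992 (adjusted p = 0.000428), Bcas1 by -0.96 ± 0.127 (adjusted p = 6.23e-05) and Rep15, which binds the recycling GTPase RAB15, by -0.48 ± 0.154 (adjusted p = 0.0364). The Rep15 call was lost with a block over all arrays (0.0527), without replicates 1 or 3 of the wild-type ileum and without any 1 wild-type jejunal array (0.0659 to 0.152). Against the jejunum the arrays labelled cKO differed by 0.14 ± 0.0992, 0.39 ± 0.127 and -0.09 ± 0.154 in that order (adjusted p = 0.42, 0.0596 and 0.782). In the cKI ileum none of the 7 genes was called, with differences from -0.37 to 0.19.

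Of 11 glycosylation genes, 8 were lower in the jejunum (7.91% of all genes) and 4 higher in the arrays labelled cKO than there (5.17%). Gcnt3, the branching enzyme that makes core 2 and core 4 structures in mucous tissue, moved most among those with a small spread. Gcnt3 read 7.61, 7.71 and 7.25 in the wild-type jejunum and 8.79, 8.69 and 8.89 in the wild-type ileum. It read 7.95, 7.88 and 7.95 in the control ileum, 7.86, 7.5 and 7.44 in the cKI ileum and 8.17, 8.42 and 8.56 in the arrays labelled cKO. The control arrays lay between the wild-type regions, the cKI arrays overlapped the jejunum, and the arrays labelled cKO between the control and the wild-type ileum. The differences were -1.26 ± 0.143 (adjusted p = 1.35e-05) between regions, 0.86 ± 0.143 (adjusted p = 0.000954) for the arrays labelled cKO against the jejunum and -0.86 ± 0.143 (adjusted p = 0.00054) for control against wild-type ileum. Gcnt3 was not called between cKI and control ileum (-0.32 ± 0.143, adjusted p = 0.308).

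Galnt3 and Galnt7, of the GALNT family that attaches the first sugar, were lower in the jejunum and higher in the arrays labelled cKO than there. Galnt3 read 7.74, 7.88 and 7.82 in the wild-type jejunum and 8.4, 8.78 and 8.37 in the wild-type ileum. It read 8.4, 8.24 and 8.31 in the control ileum, 8.27, 8.22 and 8.31 in the cKI ileum and 7.98, 8.38 and 8.63 in the arrays labelled cKO. Galnt7 read 8.4, 8.68 and 8.62 in the wild-type jejunum and 9.09, 8.98 and 9.08 in the wild-type ileum. It read 9.24, 8.83 and 9.19 in the control ileum, 8.85, 8.69 and 8.87 in the cKI ileum and 8.83, 9.09 and 9.04 in the arrays labelled cKO. For both transferases the jejunal arrays were the lowest. Galnt3 differed by -0.7 ± 0.147 (adjusted p = 0.00264) and Galnt7 by -0.48 ± 0.122 (adjusted p = 0.0101) between regions, the second lost without wild-type jejunum replicate 1 (0.0556). Against the jejunum the arrays labelled cKO were higher by 0.52 ± 0.147 (adjusted p = 0.0303) and 0.42 ± 0.122 (adjusted p = 0.0343). Both of these calls were lost without any 1 wild-type jejunal array and without arrays labelled cKO 2 or 3 (0.0634 to 0.109 and 0.0502 to 0.154). Galnt12, another such enzyme, was lower in the jejunum, with a difference of -0.86 ± 0.129 (adjusted p = 0.000181), with 0.35 ± 0.129 (adjusted p = 0.0918) in the arrays labelled cKO.

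Of the genes that extend the first sugar, C1galt1, which adds galactose to form core 1, was lower in the jejunum, with a difference of -0.74 ± 0.175 (adjusted p = 0.0065). C1galt1c1 read 6.82, 6.77 and 6.81 in the wild-type jejunum and 6.88, 7.13 and 6.93 in the wild-type ileum. It read 6.35, 6.25 and 6.18 in the control ileum, 6.93, 6.36 and 6.57 in the cKI ileum and 6.72, 6.73 and 6.93 in the arrays labelled cKO. C1galt1c1, the chaperone of C1galt1, was lowest in the 3 control arrays. It differed by -0.18 ± 0.13 (adjusted p = 0.389) between regions and was lower in the control than in the wild-type ileum (-0.72 ± 0.13, adjusted p = 0.00101). B3gnt6 read 4.51, 4.56 and 4.89 in the wild-type jejunum and 5.4, 4.98 and 5.18 in the wild-type ileum. It read 5.28, 5.28 and 5.56 in the control ileum, 5.05, 5.21 and 5.18 in the cKI ileum and 5.13, 5.2 and 5.74 in the arrays labelled cKO. All jejunal arrays were below all others. B3gnt6, which makes core 3, had a jejunal mean below the level filter of 4.91, and it was tested through the groups where it is higher. Its differences of -0.53 ± 0.164 and 0.7 ± 0.164 are therefore given as a description, with no fold, although both are among the calls counted above. Gcnt1, a core 2 enzyme, exceeded the filter in the control ileum alone, and its difference between regions was -0.47 ± 0.242.

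Gmds, which starts the making of GDP-fucose from GDP-mannose, was lower in the jejunum than in the ileum of the wild type. Gmds read 9.75, 9.61 and 9.87 in the wild-type jejunum and 10.9, 10.89 and 10.81 in the wild-type ileum. It read 10.49, 9.83 and 10.41 in the control ileum, 10.39, 10.25 and 10.18 in the cKI ileum and 9.26, 9.51 and 9.8 in the arrays labelled cKO. The arrays labelled cKO overlapped the wild-type jejunum, and the lowest array of all carried that label. The difference was -1.12 ± 0.166 (adjusted p = 0.000165) between wild-type regions, -0.22 ± 0.166 (adjusted p = 0.443) between the arrays labelled cKO and the jejunum, and -1.34 ± 0.166 (adjusted p = 0.000355) between those arrays and the wild-type ileum. The control ileum was lower than the wild-type ileum, with a difference of -0.62 ± 0.166 (adjusted p = 0.0122), lost without control replicate 2 (0.0548).

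Of the 2 membrane mucins tested, 0 were called between the wild-type regions or in the arrays labelled cKO, also at an unadjusted p under 0.05 in limma. Muc13 read 12.38, 12.55 and 12.44 in the wild-type jejunum and 12.51, 12.42 and 12.41 in the wild-type ileum. It read 12.1, 11.43 and 11.94 in the control ileum, 11.82, 11.88 and 11.75 in the cKI ileum and 12.34, 12.25 and 12.51 in the arrays labelled cKO. The control and cKI arrays were below all others, and the remaining 3 groups overlapped. Muc13, a transmembrane mucin of the brush border, differed by 0.01 ± 0.142 (adjusted p = 0.979) between regions and was lower in the control than in the wild-type ileum, with a difference of -0.62 ± 0.142 (adjusted p = 0.00481). Muc4, another transmembrane mucin, differed by -0.25 ± 0.319 (adjusted p = 0.654) between regions. Neither was called in the cKI ileum (0 ± 0.142 and 0.69 ± 0.319; adjusted p = 0.994 and 0.325).

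Fut2, Retnlb and St6galnac1 varied between arrays of 1 group far more than the others did. Their pooled SD within groups was 1.57, 2.56 and 1.48 log2 units, against 0.0862 to 0.458 for the other 32 tested genes and a median of 0.174 over all genes tested. Fut2 read 4.51, 5.71 and 5.7 in the wild-type jejunum and 8.15, 9.4 and 9.98 in the wild-type ileum. It read 10.34, 5.38 and 8.02 in the control ileum, 10.38, 10.25 and 8.26 in the cKI ileum and 6.97, 7.07 and 10.2 in the arrays labelled cKO. Fut2, the fucosyltransferase that caps mucin chains with alpha-1,2-fucose, was low in all wild-type jejunal arrays and in control replicate 2, and arrays labelled cKO 1 and 2 lay between these and the rest. The regional difference was -3.87 ± 1.06 (adjusted p = 0.0164), 14.6-fold. It was lost without wild-type ileum replicates 2 or 3 or wild-type jejunum replicate 1 (0.0509 to 0.0692). From the jejunum the arrays labelled cKO differed by 2.77 ± 1.06 (adjusted p = 0.108), and their groups did not overlap, as in 11.3% of all genes tested.

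Retnlb read 3.85, 8.55 and 4 in the wild-type jejunum and 6.24, 10.88 and 6.58 in the wild-type ileum. It read 4.02, 3.22 and 8.93 in the control ileum, 4.99, 10.02 and 8.98 in the cKI ileum and 4.92, 4.6 and 7.42 in the arrays labelled cKO. Retnlb, an antibacterial resistin-like protein of goblet cells, was high in replicate 2 of both wild-type regions, in control replicate 3 and in cKI replicates 2 and 3. The regional difference was -2.43 ± 1.73 (adjusted p = 0.376), and all groups overlapped. Within equal replicate numbers, taken as pairs here, jejunum minus ileum was -2.39, -2.33 and -2.58, all of 1 sign, and with a replicate block within sets the SE was 1.06 (adjusted p = 0.143). St6galnac1 read 4.21, 4.08 and 4.79 in the wild-type jejunum and 4.45, 4.39 and 4.35 in the wild-type ileum. It read 8.19, 7.62 and 3.74 in the control ileum, 7.14, 7.61 and 3.56 in the cKI ileum and 4.59, 4.42 and 4.13 in the arrays labelled cKO. St6galnac1, which caps the first mucin sugar with sialic acid, was chosen for description after its values were seen. It was high in replicates 1 and 2 of both control and cKI ileum and low in replicate 3 of both, in all wild-type arrays and in all arrays labelled cKO. Its differences, given as a description since it passed the filter through these groups alone, were -0.42 ± 1 between cKI and control and 2.12 ± 1 between control and wild-type ileum, the latter 3.51 without control replicate 3.

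**Figure D4:**
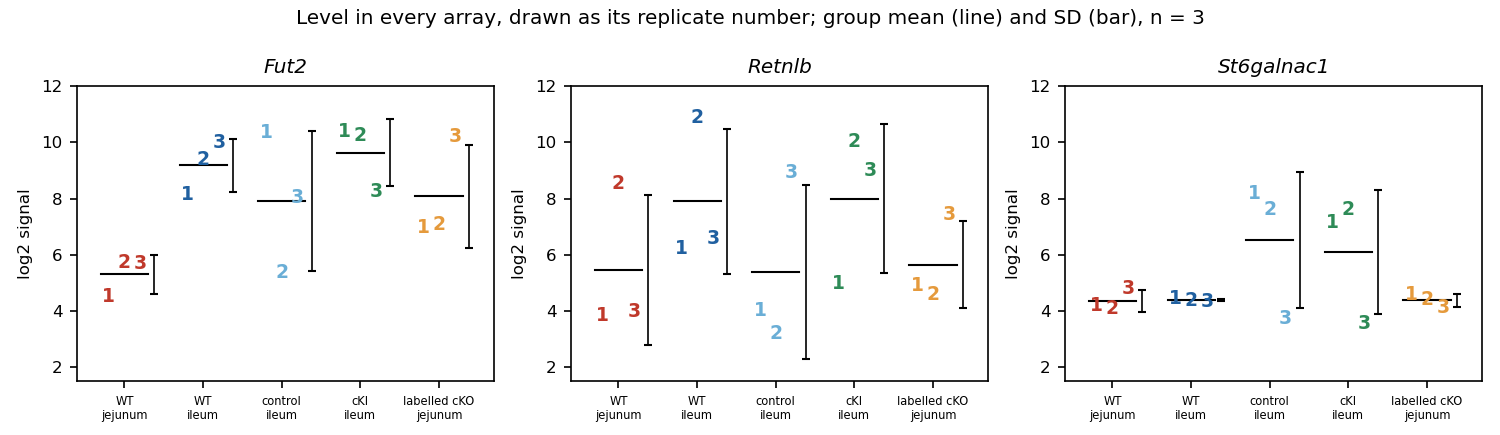
Log2 signal (y axis) of Fut2, Retnlb and St6galnac1 in every array, drawn as its replicate number, with the group mean (line) and SD (bar, n = 3) in the 5 groups on the x axis. For St6galnac1 the numbers 1 and 2 stand at 7.14 to 8.19 in the control and cKI ileum and the number 3 at 3.74 and 3.56, and for Retnlb the number 2 is highest in both wild-type regions.

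The cKI difference was tested against the regional one by subtracting the second from the first, and the 2 differences share no array. It was called above 0 for 14 of 35 genes, where 2.83% of all genes tested were so called. It was called below 0 for 0, where 6.41% were (9.23% in either direction). By sign alone, 30 of 35 were above 0 and 5 below, against 46% of all genes tested below. At an unadjusted p under 0.05 in limma 23 were above and 0 below. The regional difference, which is subtracted here, was below 0 for 34 of the 35 genes and for 49.5% of all genes tested. A cKI difference near 0 is therefore enough to put these genes above 0, and the shares over all genes are an unlike comparison. The 14 genes were Spink4, Atoh1, Spdef, Foxa1, Creb3l1, Xbp1, Agr2, Pdia5, Ern2, Sytl2, Galnt12, Gcnt3, Fut2 and Gmds. Of these, Spink4, Spdef, Foxa1, Gcnt3 and Gmds were called lower in the control than in the wild-type ileum, and Atoh1 and Agr2 higher. For Gata4 itself the cKI difference minus the regional one was -2.55 ± 0.261 (adjusted p = 3.23e-05 in limma). For Agr2 it was 1.06 ± 0.135 (adjusted p = 0.000226) and for Creb3l1 1.11 ± 0.155 (adjusted p = 0.000452). For Clca1 it was -0.1 ± 0.166 (adjusted p = 0.778) and for Muc2 0.41 ± 0.168 (adjusted p = 0.16), which does not show that the responses were the same. The calls of Xbp1, Galnt12 and Fut2 were lost without 10, 9 and 8 of the 12 arrays in turn (adjusted p from 0.0508 to 0.112). With the replicate block, Xbp1 was lost both over all arrays and within sets (0.0636 and 0.0623), and within sets Galnt12 was lost (0.0567) and C1galt1 gained (0.0304), which left 13 genes either way. With an array left out, Xbp1 stayed called without wild-type jejunum replicate 1 or cKI replicate 2. Galnt12 stayed called without wild-type jejunum replicate 2, control replicate 3 or cKI replicate 3, and Fut2 without wild-type ileum replicate 1, wild-type jejunum replicate 3, control replicate 1 or cKI replicate 3. Of the 26 genes lower in the jejunum, 19 had a cKI difference below 0 (73.1%), as had 691 of the 932 such genes in the whole table (74.1%). The median cKI and regional differences were -0.19 and -0.89 in the 26 genes, and -0.16 and -0.68 in the 932.

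Against the wild-type ileum, the arrays labelled cKO were lower for 12 of 35 genes (1.84% of all genes tested) and higher for 0 (3.26%). At an unadjusted p under 0.05 in limma 17 were lower and 0 higher. The 12 were Muc2, Spink4, Atoh1, Spdef, Creb3l4, Xbp1, Agr2, Pdia5, Rep15, Bcas1, Galnt12 and Gmds. The count fell to 5 without wild-type ileum replicate 2, to 6 without wild-type ileum replicate 1 or array labelled cKO 1, to 7 without wild-type ileum replicate 3 and to 4 when the 2 groups were fitted alone. Atoh1, Spdef, Agr2 and Gmds were called with any 1 array left out, and each of the other 8 was lost without 2 to 6 of the 6 arrays. Of the 14 genes higher than in the jejunum, 10 were not called from the ileum, and the other 4 (Muc2, Atoh1, Spdef and Agr2) were below it. Over all genes tested, 440 were lower in the wild-type jejunum and higher in the arrays labelled cKO. Of these 440 genes, 397 were not called from the wild-type ileum. An uncalled difference does not show that the level was the same.

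**Figure D5:**
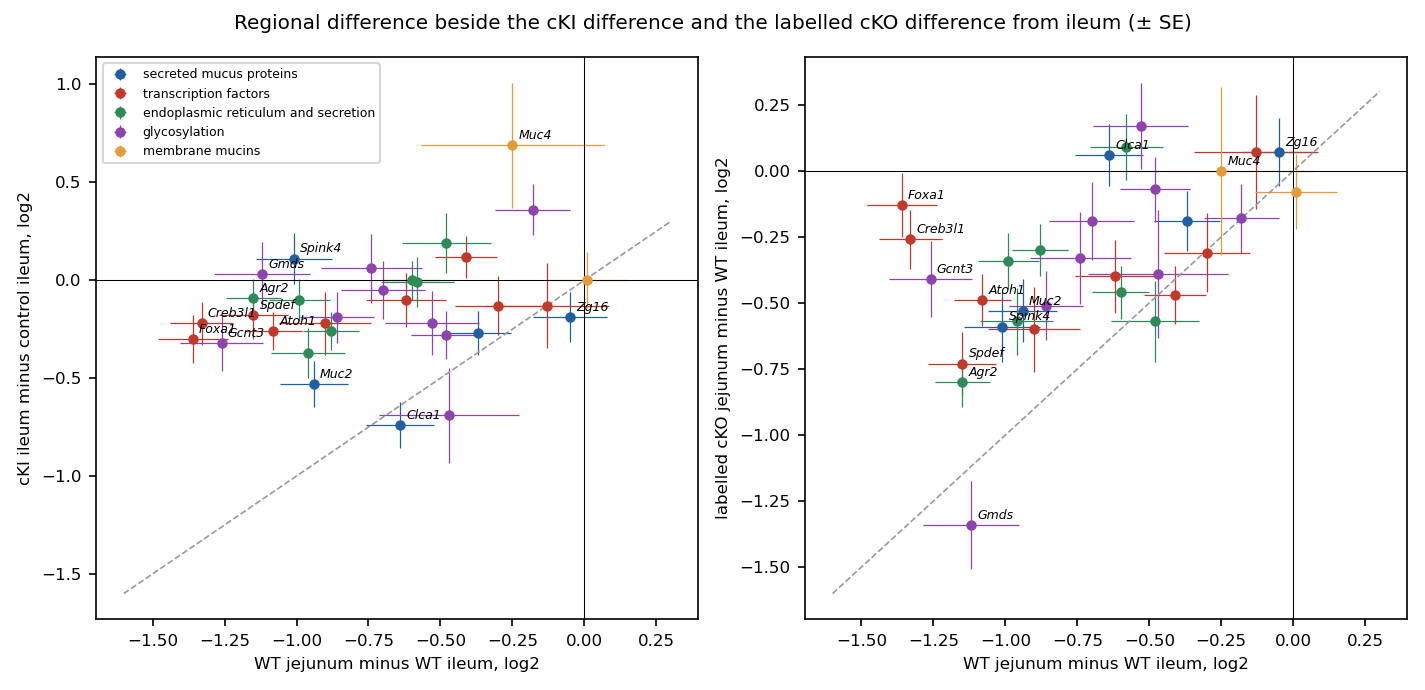
Regional log2 difference (x axis) beside the cKI difference (y axis, left) and beside the difference of the arrays labelled cKO from the wild-type ileum (y axis, right), each with its standard error, for the 32 tested genes other than Fut2, Retnlb and St6galnac1; colours give the role and the dashed line marks equal values. On the left Clca1 lies at -0.64 and -0.74, near the line, and Agr2 at -1.15 and -0.09, near 0; on the right Foxa1 lies near 0 and Gmds near the line. Both axes of the right panel share the wild-type ileal arrays.

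Goblet cell markers outside the list of 37 were also tested. Of 20 tested, 13 were lower in the jejunum (7.91% of all genes tested), 9 were higher in the arrays labelled cKO than in the jejunum (5.17%), and 1 was higher in the cKI ileum (0.339%). Guca2a, the guanylin precursor, was lower in the jejunum, with a difference of -1.6 ± 0.172 (adjusted p = 8.56e-06), and was higher in the arrays labelled cKO by 1.42 ± 0.172 (adjusted p = 6.79e-05). Tpsg1, a transmembrane tryptase, differed by -0.91 ± 0.16 (adjusted p = 0.000689) and 1.23 ± 0.16 (adjusted p = 0.000117), and Ttc39a by -1.34 ± 0.164 (adjusted p = 2.98e-05) and 0.97 ± 0.164 (adjusted p = 0.00106). Pla2g10, a secreted phospholipase, differed by -0.79 ± 0.116 (adjusted p = 0.000156) and 0.52 ± 0.116 (adjusted p = 0.00709). Ccl9, a chemokine, was higher in the cKI than in the control ileum by 0.99 ± 0.169 (adjusted p = 0.0161). In that comparison 0 of the 20 were called lower, while 6 were lower and 1 higher at an unadjusted p under 0.05 in limma. The median difference of the 20 was -0.08, against 0.03 over all genes tested.

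Other sugar chain enzymes, in a list not limited to those of mucins, went both ways. Of 29 tested, the jejunum had 5 higher and 8 lower, against 13.4% and 7.91% of all genes tested. In the arrays labelled cKO 9 were higher and 2 lower than in the jejunum, against 5.17% and 7.65%. St6galnac6, a sialyltransferase, was lower in the jejunum, with a difference of -4.15 ± 0.403 (adjusted p = 3.26e-06), and was higher in the arrays labelled cKO by 1.67 ± 0.403 (adjusted p = 0.0128). St6galnac4, of the same family, differed by -1.86 ± 0.169 (adjusted p = 1.64e-06) and 0.62 ± 0.169 (adjusted p = 0.0236), and A4gnt, which caps gland mucins with alpha-linked N-acetylglucosamine, by -1.26 ± 0.148 (adjusted p = 1.92e-05) and 0.93 ± 0.148 (adjusted p = 0.000682). The jejunal means of St6galnac4 and A4gnt lay below the level filter. St3gal6, another sialyltransferase, exceeded its ileal level in the jejunum by 0.88 ± 0.156 (adjusted p = 0.000779) and its control level in the cKI ileum by 0.73 ± 0.156 (adjusted p = 0.0493).

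Of 20 genes that supply nucleotide sugars and sulfate donors, the jejunum had 2 higher and 8 lower, against 13.4% and 7.91% of all genes, and the arrays labelled cKO 2 higher and 3 lower than the jejunum, against 5.17% and 7.65%. Gfpt1, the entry enzyme of hexosamine synthesis, was lower, with a difference of -0.99 ± 0.101 (adjusted p = 5.5e-06), and was higher in the arrays labelled cKO by 0.48 ± 0.101 (adjusted p = 0.00509). The 2 makers of the sulfate donor PAPS opposed each other: Papss1 differed by -0.88 ± 0.129 (adjusted p = 0.000151) and Papss2 by 1.81 ± 0.22 (adjusted p = 2.78e-05). Papss2 was lower in the arrays labelled cKO than in the jejunum, with a difference of -1.32 ± 0.22 (adjusted p = 0.000954).

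Folding genes of the endoplasmic reticulum showed 0 of 33 higher (1 at an unadjusted p under 0.05 in limma) and 9 lower in the jejunum, against 13.4% and 7.91% of all genes, among them Txndc5 (-0.89 ± 0.107, adjusted p = 2.47e-05) and Sdf2l1 (-0.61 ± 0.116, adjusted p = 0.00141). In the arrays labelled cKO 1 was higher and 2 lower than in the jejunum, the lower being Kdelr3, a retrieval receptor (-1.45 ± 0.249, adjusted p = 0.00118), and Herpud1, a degradation factor (-1.11 ± 0.234, adjusted p = 0.00531). Between control and wild-type ileum 11 of the 33 were higher and 7 lower, against 19.3% and 8.61% of all genes. Of 18 secretory fate and Notch genes, the jejunum had 2 higher and 2 lower, against 13.4% and 7.91% of all genes. Dll1, a Notch ligand of secretory progenitors, had a higher jejunal level, by 1.21 ± 0.149 (adjusted p = 3.23e-05), and a lower one in the arrays labelled cKO, with a difference of -0.75 ± 0.149 (adjusted p = 0.00359).

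Markers of other cells are set beside 13.4% higher and 7.91% lower over all genes tested between regions. Of 7 Paneth cell markers 1 was lower in the jejunum, Nupr1 (-1.43 ± 0.188, adjusted p = 5.74e-05), and 1 was lower in the arrays labelled cKO than in the jejunum, Ang4 (-1.49 ± 0.196, adjusted p = 0.00013). Of 12 enteroendocrine markers 3 were higher and 1 lower in the jejunum, with Gip, the hormone of K cells, higher by 2.83 ± 0.311 (adjusted p = 1.06e-05) and Pyy, of distal L cells, lower, at -1.66 ± 0.267 (adjusted p = 0.000333). Tuft cell markers had 2 of 8 higher in the jejunum, among them Avil (0.49 ± 0.147, adjusted p = 0.0261). Markers of crypt stem cells and proliferation had 1 of 9 lower, Lgr5 (-0.79 ± 0.17, adjusted p = 0.00342). Of 8 markers of T and NK cells limma called 0 between the wild-type regions (0 also at an unadjusted p under 0.05), with a median difference of 0.46, and of 7 myeloid markers 2 were lower, Cd14 (-1.13 ± 0.173, adjusted p = 0.000211) and Itgam (-1.38 ± 0.232, adjusted p = 0.000479).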

How the data were processed

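Isolated epithelial cells of the adult small intestine were profiled on 15 arrays. The deposited values are log2 signals that the authors made in Partek, per the submitters' processing notes, for 35556 transcript clusters. Partek's version and its background, normalization and summarization steps are not given in the sources used here, and the log2 scale was inferred from the values.

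By the platform annotation, 21789 clusters named 1 gene, 1621 several, and 12146 are unnamed here. Genes with several clusters took the one of highest mean. Genes entered the tests if the largest of their 5 group means was above the table's median, 4.91, which kept 11784.

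In limma 3.58.1 (R 4.3.3) each group had its own mean, all 15 arrays shared 1 spread moderated by eBayes, and tests were two-sided. The Benjamini-Hochberg correction covered the 11784 genes of each comparison, with a call at 0.05. Folds are left out if either group's mean is under the filter. The scripts were tested on simulated data.

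Every gene of the 37 is accounted for. Array values are printed for genes called in the knockin, knockout or control comparison, and for the 10 with the largest regional difference. From each further list at most 3 genes by smallest regional p, and 2 from each of the knockin and knockout comparisons, were named. The genes, lists and tests were chosen with earlier results of these data known.

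Whether replicate numbers pair arrays was checked by correlating, across genes, the deviations of same-numbered arrays from their group means. Wild-type jejunum with ileum gave 0.334, 0.216 and 0.161, and cKI with control gave 0.128, 0.177 and 0.258. All exceed 0.1, and each first-named array correlated best with the array of its own number. These numbers were therefore taken as pairs, a reading of the data that the labels do not state. The arrays labelled cKO with wild-type jejunum gave 0.185, -0.0247 and -0.0732, and control with wild-type ileum -0.103, -0.265 and -0.00722. The arrays labelled cKO with wild-type ileum gave 0.474, 0.257 and 0.058, so in none of these comparisons do all exceed 0.1. The highest value, 0.474, joins mice of different labels, so a high correlation does not by itself mark a pair. A block over all arrays gives each number 1 term, and a block within sets gives wild-type and knockin mice terms of their own. The other alternatives were quantile normalization, median centring, no filter, a stricter filter of 5.64, 2 groups fitted alone, array weights, the mean of a gene's clusters, and each array left out.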

Additional observations from a re-analysis of the deposited data

How the results depend on the processing

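No called value changed sign under any alternative run, but counts of calls moved. Over single genes and settings, 1478 values kept their side of the threshold, 161 lost a call and 68 gained one. Of the calls, 20 of 26 between wild-type regions held under every alternative, 8 of 14 for the arrays labelled cKO against jejunum, 7 of 11 for control against wild-type ileum, 3 of 12 for the arrays labelled cKO against the wild-type ileum, 11 of 14 for cKI against regional differences, and 0 of 1 for cKI against control. In that last comparison the count lower was 2 after quantile normalization, 2 with a replicate block over all arrays, 3 with array weights (which also gave 2 higher), 0 with the 2 groups alone, and 1 to 2 with an array left out. For the arrays labelled cKO against jejunum the count higher was 8 with the groups alone and 9 to 12 with an array left out. Against the wild-type ileum the count lower was 4 and 5 to 10 in those fits. For control against wild-type ileum, 2 were higher after quantile normalization and after centring, and 2 to 5 with an array left out. There 11 were lower after quantile normalization, 12 with array weights and 5 to 7 with an array left out (5 higher and 5 lower without control replicate 2), and the median went from -0.09 to -0.21 under both scalings. The cKI response differed from the regional one for 23 genes with array weights and 11 to 15 with an array left out. Between wild-type regions 21 to 24 were lower with an array left out. The cause of these changes was not tested.

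With the replicate block, 25 genes (over all arrays) or 24 (within sets) were lower in the wild-type jejunum. Tff3, B3gnt6 and Rep15 were the calls lost there, and Muc2 the call gained between cKI and control. No other call changed in these 2 comparisons, which were taken as paired. Where the numbers were not taken as pairs, the block over all arrays gave 14 higher in the arrays labelled cKO than in the jejunum and the block within sets 12. For control against wild-type ileum they gave 4 and 5 higher, and 7 and 8 lower. For the arrays labelled cKO against the wild-type ileum they gave 10 and 8 lower in place of 12, with Creb3l4 and Rep15 lost under both. With 3 arrays a group, genes with a wide spread such as Fut2, Retnlb and St6galnac1 could be called at large differences alone, and signals near the filter of 4.91, as for B3gnt6 and Gcnt1, carry no fold.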
